A study of Mus with 12 samples.

Results

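LIF and IL11 are cytokines of the interleukin-6 family that the mouse uterus needs for pregnancy. LIF, secreted by the uterine glands under the influence of estrogen, acts on the luminal epithelium before the blastocyst attaches, and IL11 acts on the stroma as it turns into decidua. Each ligand binds its own receptor subunit (LIFR for LIF, IL11RA1 for IL11), the pair recruits the shared subunit IL6ST, and the complex activates the transcription factor STAT3, whose targets include the feedback inhibitor SOCS3. OSMR is the receptor subunit for the related cytokine oncostatin M and also pairs with IL6ST. MSX1 is a homeobox factor of the uterus before implantation that is switched off around attachment.

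The 9 genes of this signaling route, Lif, Il11, Lifr, Osmr, Il11ra1, Il6st, Stat3, Socs3 and Msx1, were described in uterine RNA-seq of pregnant mice. Members were the rows that carry the gene's name together with an annotated Ensembl transcript, which gave 9 of 87235 rows in the table of E0.5 and E4.5 and 9 of 40787 rows in the table of E15.5 and E18.5. The mice were ICR, an outbred albino stock, 8 weeks old per the labels, untreated and without any engineered allele in the sources. The paper gives the same age at mating for all mice, so the age at collection rose with the day of pregnancy. The whole uterus of 1 mouse made each library, and each of the 4 groups held 3 mice: E0.5 and E4.5, which the study calls its embryo implantation stage, and, late in gestation, E15.5 and E18.5, its labor stage, where the number gives the days after mating. The question was how E0.5 differs from E4.5 and how E18.5 differs from E15.5, days that the study chose by progesterone levels. Values are FPKM (fragments per kilobase of transcript for a fixed number of sequenced fragments), a scale per length on which genes can be compared within a library. Errors are SD over 3 mice unless a standard error is named. The whole uterus mixes epithelium, stroma, muscle and other cells, and fewer cells of a type and less RNA per cell cannot be told apart in such samples.

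All 9 members passed the filter of a mean of at least 0.1 FPKM in both tables. Their rows overlap the RefSeq genes of the same names in the mouse build GRCm38 in 9 of 9 cases. Lif lies on chromosome 11 from 4257557 to 4272514 (plus strand), Il11 on chromosome 7 from 4772373 to 4782857 (minus), Lifr on chromosome 15 from 7090614 to 7197489 (plus) and Osmr near it on chromosome 15 from 6813577 to 6874969 (minus). Il6st lies on chromosome 13 from 112464070 to 112510086 (plus), Stat3 on chromosome 11 from 100885098 to 100939540 (minus), Socs3 on chromosome 11 from 117966079 to 117969867 (minus) and Msx1 on chromosome 5 from 37820485 to 37824583 (minus). Each row spans the exons and introns of its gene.

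The Il11ra1 row, on chromosome 4 from 41699989 to 41769474 (plus), is less certain. It spans several other genes, in the later table it is merged with Galt, and the genome holds near-identical copies of Il11ra1 between which reads can be divided. Galt had its own row at E0.5 and E4.5, with 2.60 to 3.14 FPKM, so the later Il11ra1 level includes a gene that the earlier one does not. The copy Il11ra2 had 2.12 to 2.40 FPKM at E0.5, 2.68 to 3.62 FPKM at E4.5, 1.16 to 1.82 FPKM at E15.5 and 0.780 to 1.11 FPKM at E18.5.

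The E0.5 and E4.5 libraries held 58020989 to 70906881 counts, and no counts were analysed here for the later libraries. One library stood apart. In E4.5 replicate 3 the 10 ovary markers summed to 1391 FPKM, against 4.53 to 6.64 FPKM in the other 5 libraries of the table, its 5 oviduct markers to 97.7 FPKM against 10.6 to 28.9, and its 7 smooth muscle markers to 206 FPKM against 798 to 1214. For the members and for the named pathway genes whose call changes, results on E4.5 are therefore also given without this library, and the part of the ovary and oviduct markers' tissue in them was not tested. Epithelial, stromal, smooth muscle, leukocyte and endothelial markers were detected in every library, as in the tissue that the labels give. Trophoblast markers were nearly absent at E0.5 and E4.5 (at most 0.220 FPKM summed, with Prl3d1, Prl3b1, Tpbpa, Gcm1 and Psg21 at 0).

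**Figure D1:**
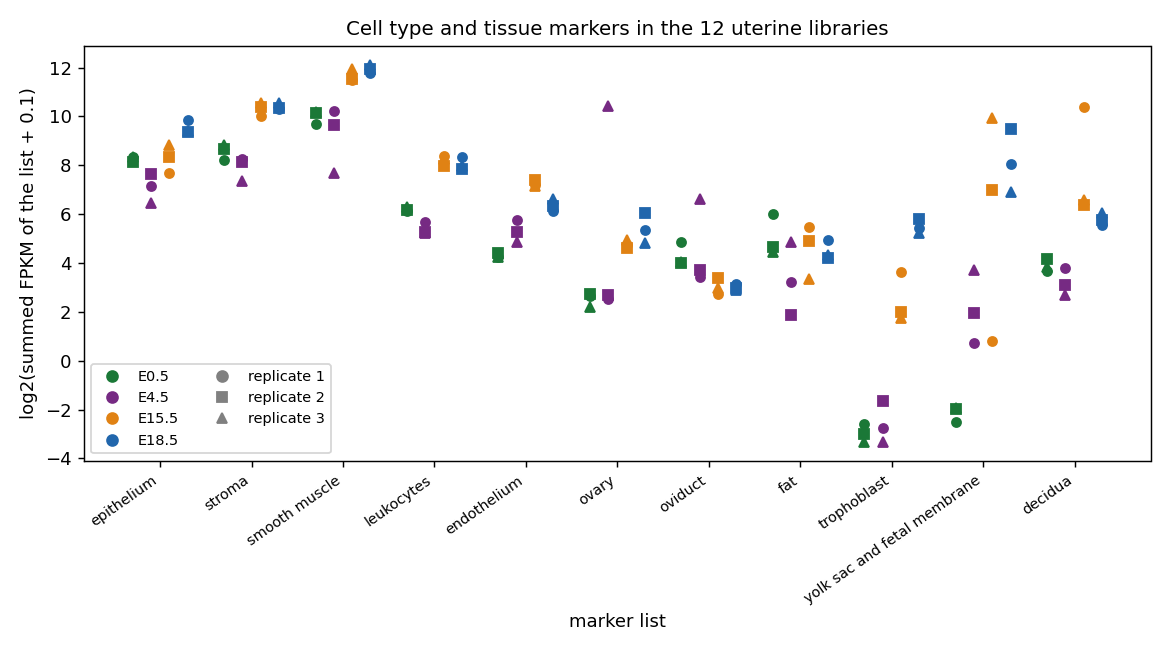
Summed FPKM of each list of marker genes, on the scale log2(summed FPKM + 0.1), for the 12 libraries; color gives the day and shape the replicate. E4.5 replicate 3 (purple triangle) is the single early library with a high ovary sum, 1391 FPKM, and E15.5 replicate 1 (orange circle) the single library with a high decidua sum, 1356 FPKM.

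Between E0.5 and E4.5, the receptor Lifr was 2.96-fold lower at E0.5, the ligand Il11 was 17.0-fold lower at E0.5 and Msx1 was 5.70-fold higher at E0.5. These 3 of 9 members met the study's criterion (|log2FC| of 1 or more and p below 0.05 before adjustment, with log2FC the log2 of the fold change), which 12.2% of the 59732 tested rows met. It was met in the higher direction by 1 member (background 6.37%) and in the lower direction by 2 (background 5.82%). Of the 9 members, 0 passed an adjusted p under 0.05 in edgeR's quasi-likelihood test (background 1.22%), 4 had an unadjusted p under 0.05 (background 17.0%), and DESeq2 put 2 members past the adjusted p (background 9.74%) and limma 1 (background 1.51%). The groups did not overlap for 6 members (background 25.2%). Without E4.5 replicate 3, the criterion was again met by 3 members (background 14.3%), and the adjusted p was passed by 2, Lifr and Msx1 (background 6.19%).

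**Figure D2:**
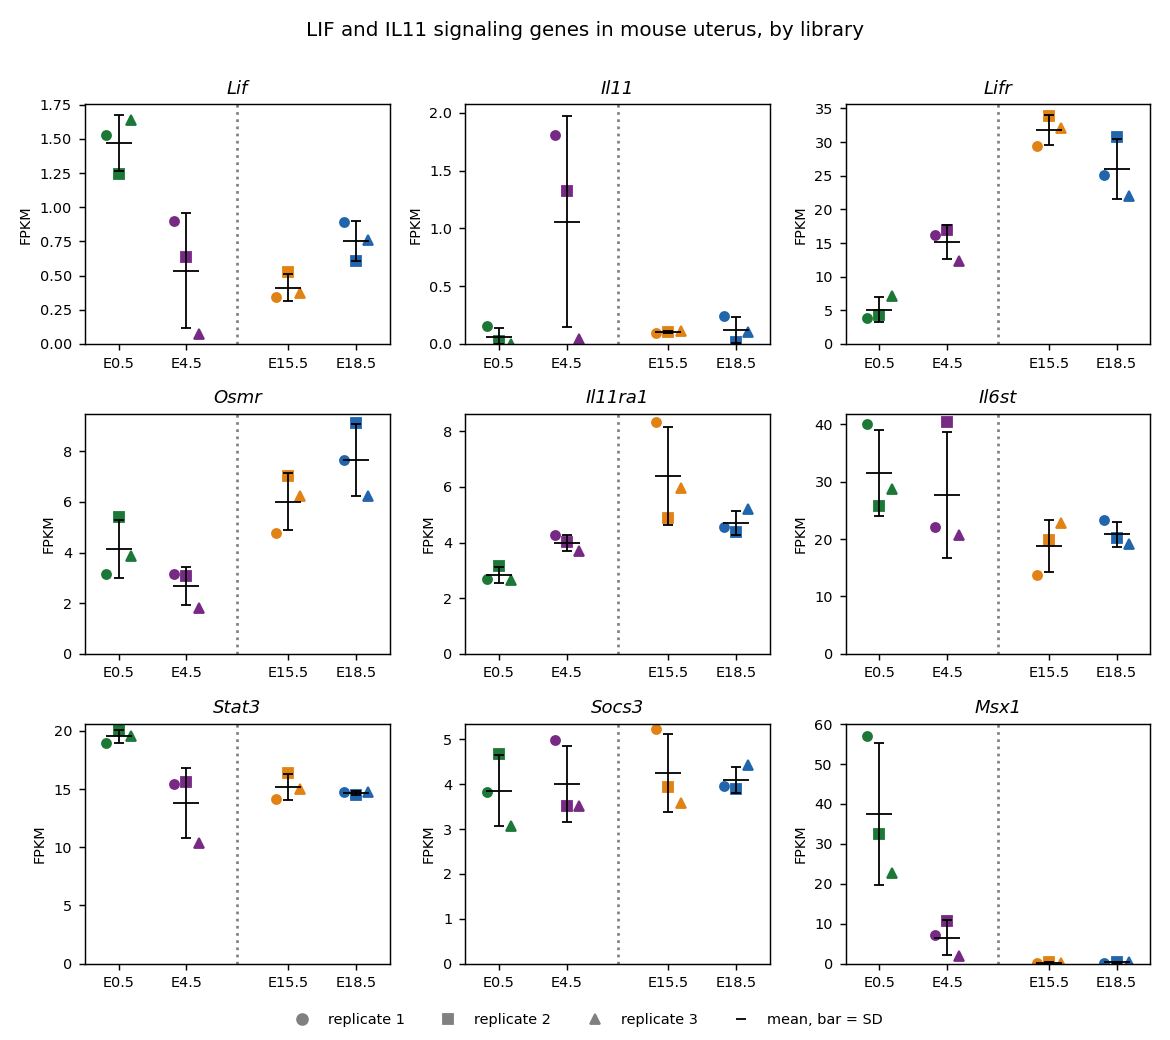
FPKM of the 9 genes in each library, by day, with the mean and SD of 3 mice (bars stop at 0); the dotted line separates the tables, which were normalized separately. Lifr at E4.5 (12.3 to 17.0 FPKM) lies above E0.5 (3.797 to 7.17 FPKM), and Msx1 at E0.5 (22.7 to 57.2 FPKM) above E4.5 (1.83 to 10.7 FPKM).

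Lif had 1.53, 1.25 and 1.64 FPKM in the E0.5 mice (570, 403 and 622 counts). At E4.5 it had 0.899, 0.637 and 0.0756 FPKM (334, 227 and 27 counts). Every E0.5 library was above every E4.5 library, and the lowest value was that of E4.5 replicate 3. The log2FC of E0.5 over E4.5 was 1.43 (standard error 0.78, adjusted p = 0.387), which did not meet the criterion. Without E4.5 replicate 3 it was 0.91 (unadjusted p = 0.0146, adjusted p = 0.1205). Markers of the epithelium, of which the glands are part, had the same order: the 8 genes summed to 279 to 327 FPKM at E0.5 and to 87.6 to 199 FPKM at E4.5. Set against that sum, Lif had 0.447 to 0.501 FPKM per 100 FPKM of epithelial markers at E0.5 and 0.0864 to 0.625 at E4.5, groups that overlap (exact permutation test, two-sided p = 0.40, Benjamini-Hochberg adjusted p = 0.436 over 12 tests of ratios).

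Il11, the ligand of the decidualizing stroma, had 0.154, 0.0247 and 0 FPKM at E0.5, from 29, 4 and 0 counts. At E4.5 it had 1.81, 1.33 and 0.0395 FPKM, from 321, 227 and 7 counts. E4.5 replicates 1 and 2 stood far above all E0.5 mice, while E4.5 replicate 3 lay within the E0.5 range. The log2FC was -4.09 (standard error 1.67, unadjusted p = 0.0455, adjusted p = 0.282). Leaving out 1 library at a time kept Il11 at the criterion in 2 of 6 cases, without E4.5 replicate 3 (log2FC -4.66, adjusted p = 0.0655) and without E0.5 replicate 1 (log2FC -6.34). Without any of the other 4 libraries, E0.5 replicates 2 and 3 and E4.5 replicates 1 and 2, the log2FC was -3.94 to -3.41 and the criterion was missed. By limma on log2(FPKM + 0.1), Il11 did not meet the criterion (unadjusted p = 0.0735). The adjusted p of Il11 ranged from 0.0550 to 0.496 over all alternatives.

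Among the receptors, Lifr had 3.797, 4.34 and 7.17 FPKM at E0.5. At E4.5 it had 16.1, 17.0 and 12.3 FPKM. All E4.5 libraries were above all E0.5 libraries, including the one with ovary markers, where Lifr was lowest of the 3. The log2FC was -1.56 (standard error 0.30, unadjusted p = 0.00124, adjusted p = 0.0633), and Lifr met the criterion with each of the 6 libraries left out in turn. Without E4.5 replicate 3 it was -1.71 with an adjusted p of 0.0185, within a range of 0.000148 to 0.244 over all alternatives. Stromal markers summed to 298 to 454 FPKM at E0.5 and to 165 to 307 FPKM at E4.5. Per 100 FPKM of these markers, Lifr had 1.08 to 1.58 FPKM at E0.5 and 5.26 to 7.498 FPKM at E4.5, 4.80-fold lower at E0.5 without overlap. That separation follows from the ranges of Lifr and of the stromal sums, so this ratio is a description. Endothelial markers had the same order as Lifr: the 5 genes summed to 18.8 to 21.5 FPKM at E0.5 and to 29.2 to 53.7 FPKM at E4.5, and 3 of them met the criterion. Per 100 FPKM of these markers, Lifr had 20.2, 20.2 and 38.0 FPKM at E0.5 against 30.0, 43.8 and 42.2 at E4.5, groups that overlap (1.53-fold lower at E0.5, exact permutation p = 0.20, adjusted p = 0.267 over 12 tests). This last ratio was added after the others.

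Osmr had 3.17, 5.42 and 3.86 FPKM at E0.5 against 3.13, 3.06 and 1.81 FPKM at E4.5. The lowest E0.5 value and the highest E4.5 value nearly touched, and the log2FC was 0.64 (standard error 0.31, adjusted p = 0.346). Il11ra1, the row with shared reads, had 2.64 to 3.17 FPKM at E0.5 against 3.69 to 4.27 FPKM at E4.5, a log2FC of -0.49 (standard error 0.19, adjusted p = 0.255). Il6st, the subunit that all these receptors share, had 40.1, 25.9 and 28.8 FPKM at E0.5 against 22.1, 40.4 and 20.8 FPKM at E4.5. Its groups overlapped, and the log2FC was 0.20 (standard error 0.31, adjusted p = 0.782). With E4.5 replicate 3 left out, the log2FC was 0.41 for Osmr (adjusted p = 0.406), -0.56 for Il11ra1 (0.137) and 0.0077 for Il6st (0.992), and none of these 3 met the criterion.

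The proportions of the receptors were compared within libraries. The ratio of Lifr to Osmr within a library was 1.20, 0.800 and 1.86 at E0.5 and 5.14, 5.55 and 6.82 at E4.5, 4.79-fold lower at E0.5. The ratio of Lifr to Il6st was 0.0947, 0.168 and 0.249 at E0.5 and 0.730, 0.420 and 0.595 at E4.5, 3.59-fold lower at E0.5. Both sets of ratios separated the days without overlap, E4.5 replicate 3 included. For Lifr to Osmr this follows from the levels, since Lifr was lower and Osmr higher in every E0.5 library, so its ratio is a description. For Lifr to Il6st, whose Il6st levels overlapped, the exact permutation test gave p = 0.10 (two-sided, adjusted p = 0.24 over 12 tests), and 0.10 is the smallest p that 3 against 3 libraries allow. These ratios were chosen after the levels had been seen.

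**Figure D3:**
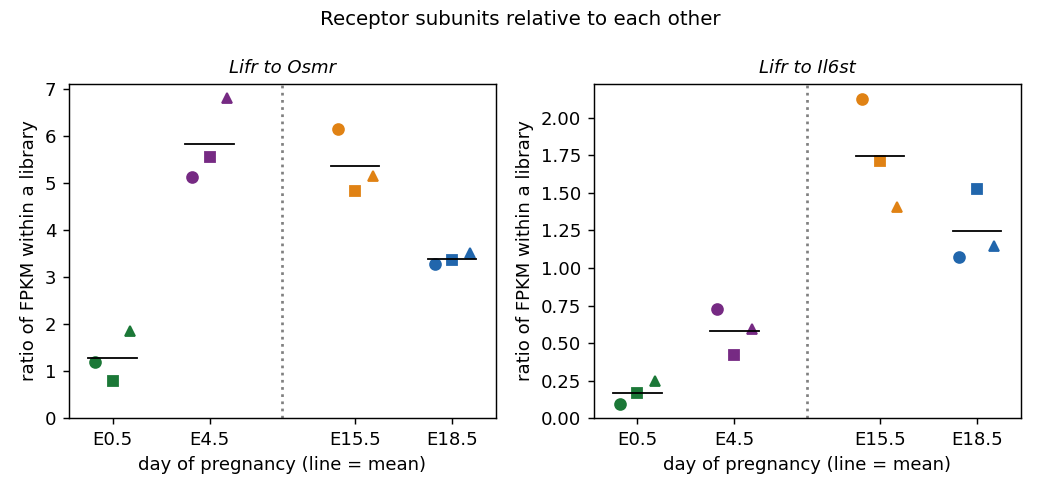
Ratio of Lifr to Osmr and of Lifr to Il6st in each library (FPKM over FPKM, no unit), by day, with the mean as a line; shapes give replicates 1 (circle), 2 (square) and 3 (triangle). The ratio of Lifr to Osmr is 0.800 to 1.86 at E0.5, 5.14 to 6.82 at E4.5, 4.84 to 6.16 at E15.5 and 3.28 to 3.52 at E18.5.

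The transducer Stat3 was among the more abundant members on every day. It had 19.0, 20.1 and 19.5 FPKM at E0.5 against 15.46, 15.57 and 10.3 FPKM at E4.5. Every E0.5 library was above every E4.5 library, but the log2FC of 0.51 (standard error 0.22, adjusted p = 0.301) stayed under the criterion. A second row within the Stat3 locus, on the opposite strand from 100918636 to 100927898 and without an annotated transcript, held 2814 to 6466 counts, with a log2FC of 0.44 (adjusted p = 0.427). The strandedness of the libraries is not given in the sources used here, so reads of these overlapping rows, and of Stat5a beside Stat3, cannot be separated with certainty. Socs3, the feedback inhibitor, had 3.84, 4.67 and 3.07 FPKM at E0.5 against 4.99, 3.52 and 3.51 FPKM at E4.5, which overlap. Its log2FC was -0.05 (standard error 0.27, adjusted p = 0.941), and its sign turned under another scaling. When E4.5 replicate 3 was left out, the log2FC was 0.32 for Stat3 (adjusted p = 0.243) and -0.16 for Socs3 (0.782), both short of the criterion.

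Msx1 had 57.2, 32.5 and 22.7 FPKM at E0.5 (15552, 7671 and 6295 counts). At E4.5 it had 7.13, 10.7 and 1.83 FPKM (1933, 2781 and 475 counts). All E0.5 libraries were above all E4.5 libraries, and E4.5 replicate 3 was the lowest. The log2FC was 2.51 (standard error 0.66, unadjusted p = 0.00734, adjusted p = 0.130). The criterion was met with each library left out in turn. Without E4.5 replicate 3 the log2FC was 2.06, with an adjusted p of 0.0304 in a range of 0.00117 to 0.315 over all alternatives. Msx1 is expressed in uterine epithelium, so it was also set against the epithelial markers, which were higher at E0.5. It had 17.6, 11.7 and 6.94 FPKM per 100 FPKM of epithelial markers at E0.5 and 4.95, 5.37 and 2.09 at E4.5, 2.95-fold higher at E0.5 without overlap (exact permutation p = 0.10, adjusted p = 0.24 over 12 tests).

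Of the 12 rows of the early table that carry a member's name but no annotated transcript, 1 met the criterion. It lies just downstream of Msx1, on chromosome 5 from 37819886 to 37820377 on the same strand, with 1.22 to 1.91 FPKM at E0.5 against 0 to 0.178 FPKM at E4.5 (log2FC 4.14, adjusted p = 0.132).

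Levels of the members were ranked within each day. At E0.5, Msx1 (37.4 ± 17.8 FPKM, n = 3) and Il6st (31.6 ± 7.51 FPKM, n = 3) were highest and overlapped. Stat3 (19.5 ± 0.556 FPKM, n = 3) was next, apart from its neighbours. Lifr, Osmr, Socs3 and Il11ra1 followed between 5.10 and 2.83 FPKM on average, each overlapping the next, and Lif and Il11 were lowest. At E4.5, Il6st (27.8 ± 11.01 FPKM, n = 3) led without overlap, and Lifr (15.2 ± 2.48 FPKM, n = 3) and Stat3 (13.8 ± 2.98 FPKM, n = 3) were not separable. Msx1 followed at 6.55 ± 4.46 FPKM (n = 3), with a range of 1.83 to 10.7 FPKM that overlaps that of Stat3 (10.3 to 15.57 FPKM), and Il11 (1.06 ± 0.916 FPKM, n = 3) and Lif (0.537 ± 0.421 FPKM, n = 3) overlapped at the low end.

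The rows most like Lif, Il11 and Msx1 over the 6 early libraries were sought among 11682 protein-coding rows by the root mean square difference of centred log2 values. Nearest to Lif were F5 (coagulation factor V), Plpp2 (a lipid phosphatase) and Tagln (a smooth muscle protein), with differences of 0.216, 0.216 and 0.224. All of these had their lowest value in E4.5 replicate 3, such as 17.3 FPKM for Tagln against 113 to 212 FPKM elsewhere. Nearest to Il11 were Igfbp3 (an IGF-binding protein), Depp1 and Lef1 (a transcription factor of Wnt signaling), with 0.351, 0.404 and 0.465. Igfbp3 had 331 and 222 FPKM in E4.5 replicates 1 and 2 and 24.9 to 35.5 FPKM in the other 4 libraries. Nearest to Msx1 were the homeobox gene Dlx5 (0.375), Gm9195 (0.398) and Lyl1 (0.424), and Dlx5 had 7.98 to 9.11 FPKM at E0.5 against 0.468 to 2.71 FPKM at E4.5.

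Around the members, 84 other genes of the route were followed in 8 lists, of which 80 were tested between E0.5 and E4.5. Of these, 11 were higher and 18 lower at E0.5 by the criterion, against 12.2% of all rows in both directions, and 12 passed the adjusted p (background 1.22%). The lists were chosen with earlier results of these data known, so their counts beside the background, here and below, are a description and no test of the route. The median log2FC of the 80 was -0.09, beside -0.01 over all tested rows. Without E4.5 replicate 3, 13 were higher and 18 lower, and 30 passed the adjusted p (background 6.19%). The 12 calls by the adjusted p were mostly lost without any 1 of the other 5 libraries: 1 gene passed without E0.5 replicate 1, 0 without E0.5 replicate 2, 1 without E0.5 replicate 3, 2 without E4.5 replicate 1 and 2 without E4.5 replicate 2 (background 0% to 0.253%), and 0 with the replicate number as a block (background 0%). Of the 12, Lcn2 passed in 5 of 6 cases with a library left out, Bmp2 in 3, and Il6ra, Fos, Birc5, Ereg, Ihh, Msx2, Wnt11, Prss28, Muc1 and Ltf in 1, that without E4.5 replicate 3. The highest adjusted p with a library left out was 0.0554 for Lcn2, 0.126 for Bmp2 and between 0.134 (Msx2) and 0.214 (Prss28) for the other 10, and each of the 12 met the criterion in 6 of 6 cases.

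Of the ligands, receptor subunits, JAK kinases, STATs, adaptors and negative regulators beside the members, 3 of 32 tested met the criterion, 1 higher and 2 lower at E0.5, against 12.2% of all rows. Of the other IL6-family ligands, 4 of 8 were tested and none met it, though Ctf1, cardiotrophin 1, did without E4.5 replicate 3 (log2FC 1.40, adjusted p = 0.0577, in a range of 0.0577 to 0.607 over its alternatives). Of 5 other receptor subunits, Il6ra, the receptor subunit for IL6, was higher at E0.5, with 5.54, 4.503 and 2.97 FPKM against 1.08, 1.16 and 1.23 FPKM at E4.5 (log2FC 1.92, adjusted p = 0.0280). The days did not overlap for Il6ra, which had the opposite order to Lifr. Leukocyte markers had the same order as Il6ra: the 8 genes summed to 70.7 to 77.9 FPKM at E0.5 against 37.7 to 51.1 FPKM at E4.5, with S100a9 at 0 throughout, and of 7 tested 3 met the criterion, all higher at E0.5, and 2 passed the adjusted p. Their part in the values of Il6ra, and of Il1rn and Fgl2 given further on, which leukocytes also express, was not tested. Of 9 JAK kinases, other STATs and adaptors, Jak1, a kinase bound to IL6ST, was lower at E0.5 (7.38 to 9.73 against 13.4 to 24.1 FPKM, log2FC -1.09, adjusted p = 0.0943). Its highest value was that of E4.5 replicate 3, and the log2FC of -0.86 without that library, or of -0.997 without E0.5 replicate 1, fell short of the criterion. Of 14 other negative regulators, Socs7 was lower at E0.5 (2.01 to 2.496 against 3.86 to 6.24 FPKM, log2FC -1.03, adjusted p = 0.0832), also with its highest value in E4.5 replicate 3. It fell short at -0.80 without that library (adjusted p = 0.0373, up to 0.275 over its alternatives) and at -0.93 without E0.5 replicate 1.

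STAT3 target genes went both ways, with 4 of 21 higher (background 6.37%) and 4 lower (background 5.82%) at E0.5 by the criterion. The list median was 0.36, beside -0.01 over all tested rows. Lcn2, the iron-sequestering lipocalin of mucosal epithelia, had 321, 308 and 318 FPKM at E0.5 against 2.21, 1.22 and 2.23 FPKM at E4.5 (log2FC 7.38, standard error 0.35, adjusted p = 0.00505). Lrg1, a secreted glycoprotein, and Fos, an immediate early transcription factor, were also higher at E0.5, with log2FC values of 2.17 (adjusted p = 0.0748) and 1.89 (adjusted p = 0.0353), as was Fgl2 at 1.58 (adjusted p = 0.151). Lower at E0.5 were Birc5, an inhibitor of apoptosis in dividing cells, at -3.02 (adjusted p = 0.0447, and -3.61 without E0.5 replicate 2), Myc, a growth regulator, at -1.84 (adjusted p = 0.152), Hif1a, the hypoxia-inducible factor, whose row is merged with Snapc1, at -1.34 (adjusted p = 0.0531), and Timp1, a metalloprotease inhibitor, at -2.10 (adjusted p = 0.261). For Timp1 the value rests on E4.5 replicate 3, with 16.2 FPKM against 2.04 and 2.83 FPKM in the other E4.5 mice, and without it the log2FC was -0.65. Timp1 also missed the criterion without any 1 of the E0.5 libraries (log2FC -2.51 to -1.90). Leaving out E4.5 replicate 3, 5 of the 21 met the criterion in each direction (background 14.3% in both), now with Hp, Ccnd1 (log2FC -1.60) and Bcl2l1 among them. The adjusted p was passed by 9 in place of 3, while the background rose from 1.22% to 6.19%. Ccnd1 went to an adjusted p of 0.0232 (highest over its alternatives 0.539), Bcl6 to 0.0498 (0.716), Lrg1 to 0.0262 (0.238), Fgl2 to 0.00165 (0.343, with a log2FC of 2.30), Myc to 0.00194 (0.377) and Hif1a to 0.00307 (0.211).

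Genes listed as LIF-responsive in uterine epithelium were mostly lower at E0.5, 6 of 9 by the criterion (background 5.82%), with 2 higher (background 6.37%). Of the 9, 2 passed the adjusted p (background 1.22%). The list median was -2.39, and it ran from -2.74 to -2.11 with 1 library left out. Ereg and Areg encode ligands of the EGF receptor family, and both had 0 counts in all E0.5 libraries. At E4.5 Ereg had 0.220, 0.158 and 0.265 FPKM and was at least 72.8-fold higher than at E0.5, taking a floor of 3 counts over the E0.5 group (edgeR adjusted p = 0.0391). Areg had 0.827, 0.341 and 0.332 FPKM at E4.5 and was at least 50.4-fold higher (adjusted p = 0.0662). With 1 library left out, the lowest bounds were 46.9-fold for Ereg and 32.5-fold for Areg. With Ereg and Areg at these bounds the list median is the same, since both lie below it. Igfbp3 had a log2FC of -2.78 (adjusted p = 0.135), Ihh, a hedgehog ligand of the epithelium, -2.56 (adjusted p = 0.0449), Coch -2.39 (adjusted p = 0.0960) and Acod1 -2.38 (adjusted p = 0.254). With 1 library left out, these folds moved by over 1.5 times for Coch (log2FC -1.55 without E4.5 replicate 2), Acod1 (-1.49 without E4.5 replicate 1) and Igfbp3 (-2.11 without E4.5 replicate 1). Of these genes, only Acod1 had overlapping groups, and it met the criterion in 1 of 6 cases with a library left out, while Ihh, Coch, Fgl2 and Hif1a met it in 6 of 6. Ihh, Coch, Acod1, Fgl2 and Hif1a, and genes whose call changed without E4.5 replicate 3 (Ctf1, Bcl6, Ccnd1, Hp, Bcl2l1 and Hoxa10), fall outside the naming rule and were added after their values had been seen. The exceptions were Ptgs2, the prostaglandin synthase COX2, with 5.26 to 12.3 FPKM at E0.5 against 0.151 to 0.996 FPKM at E4.5 (log2FC 3.79, adjusted p = 0.0716), and Il1rn, the interleukin-1 receptor antagonist (3.67, adjusted p = 0.0644, and 2.91 without E0.5 replicate 1). With that library of E4.5, replicate 3, left out, the counts by the criterion were again 2 and 6 (background 14.3% in both directions). The adjusted p was then passed by 8 in place of 2, while the background rose from 1.22% to 6.19%. Igfbp3 then had an adjusted p of 0.00144, Coch of 0.0168, Acod1 of 0.0106, Areg of 0.0413, Ptgs2 of 0.00732 and Il1rn of 0.0398, while over all alternatives the highest were 0.348 for Igfbp3, 0.285 for Coch, 0.497 for Acod1, 0.234 for Areg, 0.208 for Ptgs2 and 0.272 for Il1rn.

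Of the 9 partners of Msx1 in the implanting uterus, 2 were higher (background 6.37%) and 3 lower (background 5.82%) at E0.5 by the criterion. Msx2, its paralog, had the same order as Msx1, with 1.31, 1.31 and 1.39 FPKM at E0.5 against 0.208, 0.234 and 0.134 FPKM at E4.5 (log2FC 2.77, standard error 0.33, adjusted p = 0.0245). Cdh1, the epithelial cadherin and also 1 of the epithelial markers, was at 1.14 (adjusted p = 0.163), and missed the criterion at 0.85 without E4.5 replicate 3 and at 0.97 without E0.5 replicate 3. Bmp2, a growth factor of the decidualizing stroma, had 0.484, 0.521 and 0.580 FPKM at E0.5 against 8.25, 4.92 and 3.97 FPKM at E4.5 (log2FC -3.44, standard error 0.36, adjusted p = 0.0187). Wnt11 was at -2.98 (adjusted p = 0.0385). Hand2, a stromal factor that progesterone induces, had 1.67 to 2.75 FPKM at E0.5 against 22.03, 20.6 and 1.13 FPKM at E4.5, so that E4.5 replicate 3 lay below all E0.5 mice (log2FC -2.83, adjusted p = 0.212, and -3.38 with 0.00188 without it, in a range of 0.00188 to 0.525 over its alternatives). Hand2 missed the criterion without E0.5 replicate 1, E0.5 replicate 2, E4.5 replicate 1 or E4.5 replicate 2 (log2FC -2.73 to -2.34). The row of Hoxa10, merged with Hoxa9, came to meet it without E4.5 replicate 3 (log2FC -1.55, adjusted p = 0.00802, up to 0.885 over its alternatives).

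Gland and secretory genes went both ways as well, with 2 of 9 higher (background 6.37%) and 3 lower (background 5.82%) at E0.5 by the criterion. Ltf, the estrogen-induced lactotransferrin, had 537, 347 and 470 FPKM at E0.5 against 2.99, 5.15 and 20.0 FPKM at E4.5 (log2FC 5.63, adjusted p = 0.0337). Muc1, a mucin of the luminal surface, had 45.8 to 79.8 against 1.24 to 4.45 FPKM (log2FC 4.34, adjusted p = 0.0275). Both are epithelial genes, and the 8 epithelial markers were higher at E0.5 too (279 to 327 against 87.6 to 199 FPKM summed, with 4 of 8 meeting the criterion), whose part in these values was not tested. The implantation serine proteases had the opposite order. Prss28 had 0.0615 to 0.106 FPKM at E0.5 against 147, 332 and 3.44 FPKM at E4.5 (log2FC -10.8, adjusted p = 0.0496), and Prss29 had 0.241 to 3.98 FPKM at E0.5 against 446, 622 and 5.92 FPKM at E4.5 (-7.75, adjusted p = 0.116). Spink1, a protease inhibitor, had at most 0.0610 FPKM at E0.5 against 10.5, 13.5 and 0.285 FPKM at E4.5 (-8.43, adjusted p = 0.0908). In all 3 of these genes E4.5 replicate 3 was far below its group, as for Lif and Il11. Without it the log2FC was -11.4 for Prss28, -8.34 for Prss29 (adjusted p = 0.00973, range up to 0.332 over its alternatives), -8.99 for Spink1 (adjusted p = 0.00567, range up to 0.278) and 6.78 for Ltf. In that setting 5 genes of the list passed the adjusted p in place of 3, while the background rose from 1.22% to 6.19%. Other libraries also moved these folds by over 1.5 times: Prss28 was at -9.80 without E4.5 replicate 2, Prss29 at -7.15 without E4.5 replicate 2 and at -9.39 without E0.5 replicate 1, and Spink1 at -10.9 without E0.5 replicate 1.

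**Figure D4:**
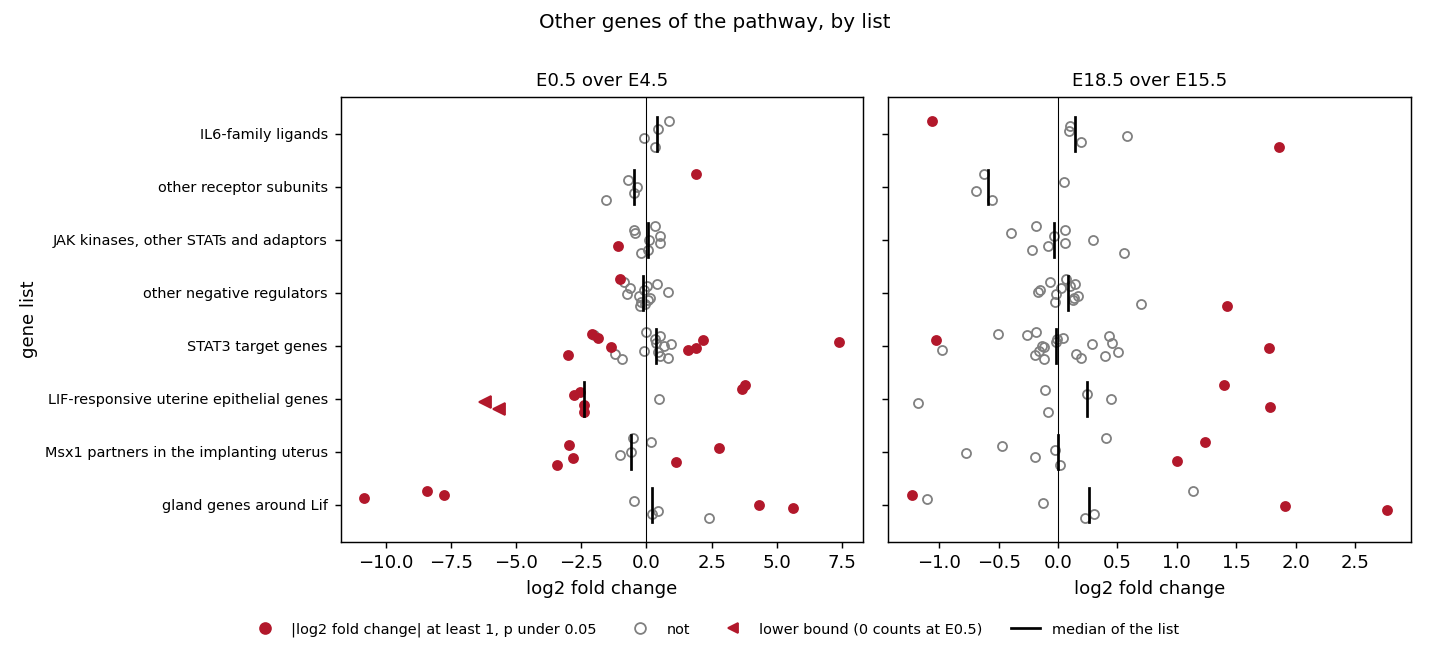
Log2FC of each tested gene of the 8 lists, E0.5 over E4.5 (left) and E18.5 over E15.5 (right, a narrower axis); filled points met the study's criterion, triangles are the bounds of Ereg and Areg, and black lines are list medians. In the left panel the LIF-responsive list has the lowest median, -2.39.

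Between E18.5 and E15.5, 0 of 9 members met the criterion, against 6.05% of 30928 tested rows (3.11% higher and 2.93% lower at E18.5). By limma 0 passed the adjusted p (background 0.0259%) and 1, Lif, had an unadjusted p under 0.05 (background 12.2%). Lif was also the 1 member of 9 whose groups did not overlap (background 19.9%). It had 0.341, 0.526 and 0.370 FPKM at E15.5 and 0.894, 0.606 and 0.759 FPKM at E18.5. The E18.5 libraries were all higher, and the log2FC, on the log2(FPKM + 0.1) scale, which understates changes of low genes, was 0.74 (standard error 0.27, unadjusted p = 0.0308, adjusted p = 0.352). Epithelial markers were higher at E18.5 as well (663 to 925 FPKM summed against 206 to 460, with 5 of 8 meeting the criterion), and Lif per 100 FPKM of these markers overlapped between the days (exact permutation p = 0.40, adjusted p = 0.436 over 12 tests). Il11 was low on both days, at 0.0921, 0.101 and 0.115 FPKM at E15.5 and 0.240, 0.0197 and 0.101 FPKM at E18.5 (log2FC -0.01, standard error 0.46, adjusted p = 0.996).

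Lifr was the most abundant member of this pair of days. It had 29.4, 33.9 and 32.03 FPKM at E15.5 and 25.1, 30.7 and 21.9 FPKM at E18.5, which overlap (log2FC -0.30, standard error 0.15, adjusted p = 0.482). Endothelial markers summed to 141 to 171 FPKM at E15.5 and to 69.6 to 98.1 FPKM at E18.5, lower at E18.5 as Lifr was on average. Lifr per 100 FPKM of these markers was 22.4 to 37.9 FPKM at E18.5 and 19.8 to 22.8 at E15.5, which overlap (exact permutation p = 0.20, adjusted p = 0.267 over 12 tests). Osmr had 4.78, 7.01 and 6.22 FPKM at E15.5 and 7.66, 9.10 and 6.24 FPKM at E18.5, a log2FC of 0.35 (adjusted p = 0.528). Though neither met the criterion, their ratio did not overlap between the days: Lifr to Osmr was 6.16, 4.84 and 5.15 at E15.5 and 3.28, 3.38 and 3.52 at E18.5, 1.58-fold lower at E18.5 (exact permutation p = 0.10, adjusted p = 0.24 over 12 tests). The ratio of Lifr to Il6st (1.40-fold lower at E18.5) and Lifr per 100 FPKM of stromal markers (1.29-fold lower) did overlap. Each had an exact permutation p of 0.20 (adjusted p = 0.267 over 12 tests). The merged Il11ra1 row had 8.32, 4.88 and 5.94 FPKM at E15.5 and 4.58, 4.36 and 5.20 FPKM at E18.5 (log2FC -0.40, adjusted p = 0.494).

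Of the remaining members, each had overlapping groups. Il6st had 13.8, 19.8 and 22.8 FPKM at E15.5 and 23.3, 20.2 and 19.1 FPKM at E18.5 (log2FC 0.17, standard error 0.20). Stat3 had 14.1, 16.4 and 15.0 FPKM at E15.5 and 14.8, 14.5 and 14.8 FPKM at E18.5 (-0.04, standard error 0.11). Socs3 had 3.58 to 5.23 FPKM at E15.5 and 3.90 to 4.43 FPKM at E18.5 (-0.04, standard error 0.17). Msx1 was near the low end, with 0.0878, 0.376 and 0.118 FPKM at E15.5 and 0.264, 0.345 and 0.304 FPKM at E18.5 (0.58, standard error 0.43, adjusted p = 0.621). In order of level, Lifr (31.8 ± 2.26 FPKM, n = 3) lay above Il6st (18.8 ± 4.55 FPKM, n = 3) at E15.5 without overlap, while at E18.5 Lifr (25.9 ± 4.46 FPKM, n = 3) and Il6st (20.9 ± 2.18 FPKM, n = 3) overlapped.

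The libraries of these days differed in their tissue markers. The 6 decidua markers summed to 1356 FPKM in E15.5 replicate 1 and to at most 97.0 FPKM in the other 5. Yolk sac and fetal membrane markers ran from 1.64 to 986 FPKM within E15.5, and trophoblast markers were higher at E18.5 (36.9 to 56.5 FPKM) than at E15.5 (3.24 to 12.4 FPKM). With any 1 library left out, 0 members met the criterion.

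Of the other genes of the route, 77 were tested between E18.5 and E15.5, and 9 were higher and 3 lower at E18.5 by the criterion, against 6.05% of all rows. By limma 0 passed the adjusted p and 19 had an unadjusted p under 0.05 (background 12.2%). Among the ligands, Clcf1, a cytokine of the same family, was higher at E18.5, with 4.11, 2.11 and 4.92 FPKM against 0.863, 0.681 and 1.20 FPKM (log2FC 1.86, adjusted p = 0.141). Osm, oncostatin M, was lower at E18.5 (0.121 to 0.153 against 0.275 to 0.653 FPKM, log2FC -1.06, adjusted p = 0.312), while Osmr, its receptor, had the groups that overlap given above. Cish, a STAT-induced inhibitor, was higher at E18.5 (2.23 to 2.71 against 0.464 to 1.59 FPKM, log2FC 1.42, adjusted p = 0.238). None of the 4 tested receptor subunits and none of the 9 JAK kinases, STATs and adaptors met the criterion.

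Of the STAT3 targets, Fos was higher at E18.5, with 18.4, 25.9 and 17.7 FPKM against 5.04, 6.15 and 6.56 FPKM (log2FC 1.78, standard error 0.19, adjusted p = 0.0545). Lrg1 was lower, at -1.03 (adjusted p = 0.369), with overlapping groups. Ptgs2 had 3.39, 0.943 and 1.23 FPKM at E15.5 and 3.91, 5.89 and 3.56 FPKM at E18.5 (log2FC 1.40, adjusted p = 0.302). Areg is listed at 0 for all E15.5 mice and had 0.270, 0.798 and 0.0224 FPKM at E18.5 (adjusted p = 0.391). Wnt4 (1.24, adjusted p = 0.149) and Cdh1 (1.0, at the edge of the criterion, adjusted p = 0.365) were higher at E18.5 among the Msx1 partners, and Ltf (2.77, adjusted p = 0.167) and Muc1 (1.91, adjusted p = 0.251) among the gland genes, where Prss29 was lower (-1.23, adjusted p = 0.365). With each library left out in turn, Clcf1, Cish, Fos, Wnt4, Ltf and Muc1 met the criterion in 6 of 6 cases, though Ltf went to 2.05 without E15.5 replicate 1 and Muc1 to 2.52 without E15.5 replicate 3. Osm missed it without E15.5 replicate 1 (log2FC -0.77) or E18.5 replicate 1 (-0.996), and Ptgs2 without E15.5 replicate 2, E15.5 replicate 3 or E18.5 replicate 2 (1.05 to 1.22). Cdh1 missed it without E15.5 replicate 1 (0.55), the library with the high decidua sum, E18.5 replicate 1 (0.86) or E18.5 replicate 2 (1.02). Lrg1 met it in 2 of 6 cases, without E15.5 replicate 1 or E18.5 replicate 3. Areg met it only without E18.5 replicate 3, and Prss29 only without E15.5 replicate 2, of the 6 cases. The higher genes Cdh1, Muc1 and Ltf are epithelial, and epithelial markers were higher at E18.5 too, whose part in these values was not tested.

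The effect of the day was compared between the stages by subtracting one log2FC from the other, (E0.5 over E4.5) minus (E18.5 over E15.5), over 22056 pairs of rows, of which 2.64% passed an adjusted p under 0.05. Of the 9 members, 0 passed it by limma, and 3, Lifr, Stat3 and Msx1, had an unadjusted p under 0.05 (background 18.2%). The smallest p was that of Lifr, at -1.29 (standard error 0.33, adjusted p = 0.0617). The adjusted p of Lifr was 0.0323 without E4.5 replicate 3 and 0.0232 without E0.5 replicate 3, in a range of 0.0232 to 0.166 over its alternatives. Il11 was at -2.30 (adjusted p = 0.346), and at -3.48 without E4.5 replicate 3 (adjusted p = 0.0177, range 0.0177 to 0.525). Msx1 was at 2.13 (standard error 0.82, adjusted p = 0.197) and Stat3 at 0.57 (adjusted p = 0.213). The median over all pairs was -0.13, and 0.01 after scaling each library to its 75th percentile.

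**Figure D5:**
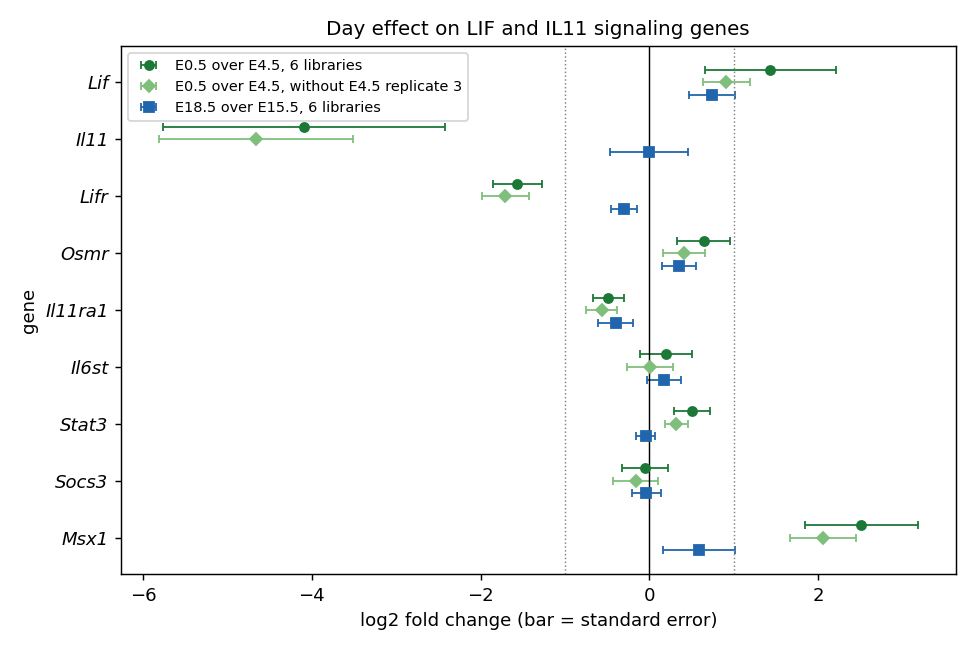
Log2FC with its standard error for the 9 genes, E0.5 over E4.5 with all 6 libraries and without E4.5 replicate 3 (edgeR), and E18.5 over E15.5 (limma); dotted lines mark an absolute log2FC of 1. Il11, Lifr and Msx1 lie beyond the lines between E0.5 and E4.5, as does Lif with all 6 libraries (1.43, and 0.91 without E4.5 replicate 3), and the 9 genes lie within them between E18.5 and E15.5.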

How the data were processed

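Whole uteri of 12 ICR mice were sequenced by the authors, 3 for each of 4 days of pregnancy. The authors trimmed reads with Cutadapt, aligned them, built transcripts with StringTie and took their levels from it and Ballgown. Their methods name Bowtie2 and Tophat2, while the submitters' processing notes name Bowtie 0.12.2, HISAT2 2.0 and StringTie 1.3.0 with builds mm8 and mm10, and the labels and the methods differ on poly(A) selection against rRNA depletion. The FPKM values were deposited by the authors as 1 gene table per stage, normalized separately, so tests stayed within a table or compared differences between tables. Whole-number counts per gene were deposited for E0.5 and E4.5 only, and how reads were assigned is not given in the sources used here. Unnamed rows (1.02% to 1.86% of counts) are assembled loci and stayed in totals and fits. An FPKM of 0.0001, which stands for 0, was set back to 0.

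Tests took rows averaging 0.1 FPKM or more. E0.5 was compared with E4.5 on counts with edgeR 4.0.16 (TMM, quasi-likelihood F-test) and E18.5 with E15.5 on log2(FPKM + 0.1) by limma 3.58.1 with a trend (R 4.3.3). The difference between the stages used limma over pairs of rows that share Ensembl transcripts. P-values were adjusted after Benjamini and Hochberg across every row tested. Ratios within libraries were compared with two-sided exact permutation tests (SciPy 1.17.1). On simulated data with 200 changed rows, edgeR recovered 91.5% by the adjusted p with 11 false calls among 59732 rows (E0.5 against E4.5), limma 99% with 15 among 30928 (E18.5 against E15.5) and 97.5% with 5 among 22056 (the difference between the stages). By a |log2FC| of 1 and an unadjusted p under 0.05, the recovered shares and false calls were 99.5% and 333, 98% and 3, and 99.5% and 78. Every simulated row had the same set spread, every changed row the same size of change, and no simulated library stood apart. These shares therefore do not measure recovery or false calls in the real libraries.

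The members, the 8 pathway lists and the 11 marker lists were chosen with earlier results of these data known. The text names all members and, per list, comparison and direction, up to 3 genes with the largest absolute log2FC among those meeting the study's criterion, plus the 3 protein-coding rows of at least 1 FPKM nearest in profile to Lif, Il11 and Msx1. For a gene with 0 counts in a group, the fold is a bound from a floor of 3 counts over that group, which covers counting error only. The alternatives were other scalings, filters, pseudocounts, DESeq2 1.42.0, limma without trend or on FPKM, leaving out each library, and a replicate block. No sequence was used here.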

Additional observations from a re-analysis of the deposited data

How the results depend on the processing

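The count of members meeting the criterion was 3 between E0.5 and E4.5, 2 or 3 under each alternative, and 0 between E18.5 and E15.5 under each. Members past the adjusted p between E0.5 and E4.5 went from 0 to 2 by DESeq2, to 1 at a mean of at least 1 FPKM and to 1 by limma on log2(FPKM + 0.1) or log2(FPKM + 1), and leaving out 1 library gave 0 to 2, with 2 without E4.5 replicate 3. For the difference between the stages, leaving out 1 library gave 0 to 2 members, with 1 without E0.5 replicate 3 and 2 without E4.5 replicate 3. The cause was not tested in these cases. The other pathway genes meeting the criterion between E18.5 and E15.5 went from 12 to 6 on log2(FPKM + 1), a scale that shrinks low values, and to 7 to 12 with 1 library left out (7 without E18.5 replicate 1 or without E18.5 replicate 2). Other pathway genes past the adjusted p between E0.5 and E4.5 went from 12 to 29 by DESeq2 and to 0 to 30 with 1 library left out: 1 without E0.5 replicate 1, 0 without E0.5 replicate 2, 1 without E0.5 replicate 3, 2 without E4.5 replicate 1, 2 without E4.5 replicate 2 and 30 without E4.5 replicate 3. Over all rows that count was 730, with 5816 by DESeq2, 0 without E0.5 replicate 2 and 3664 without E4.5 replicate 3.

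With the replicate block, 0 other pathway genes passed the adjusted p between E0.5 and E4.5, in place of 12, and 3 members met the criterion. The labels name no pairing of same-numbered samples. Deviations of same-numbered libraries correlated at -0.06, 0.02 and -0.06 between E0.5 and E4.5 and at 0.02, 0.00069 and -0.05 between E18.5 and E15.5. Whether same-numbered libraries shared a preparation was not tested.

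Among the members, signs turned only for values near 0. Other pathway genes further from 0 turned too, such as Saa3 between E0.5 and E4.5 (log2FC -2.03, and 2.32 without E4.5 replicate 3). Between E0.5 and E4.5, Socs3 was at 0.032 with upper quartile factors and at -0.22 to 0.18 with 1 library left out. Between E18.5 and E15.5, Il11 was at 0.018 on log2(FPKM + 1), at 0.011 after quantile normalization and at -0.38 to 0.37 with 1 library left out, where Il6st ran from -0.031 to 0.33, Stat3 from -0.094 to 0.012 and Socs3 from -0.15 to 0.12. For the difference between the stages, 75th percentile scaling put Socs3 at 0.13 and Il11ra1 at 0.066, and leaving out 1 library gave -0.13 to 0.36 for Il6st, -0.17 to 0.15 for Socs3 and -0.29 to 0.090 for Il11ra1. Of 848 values for single genes under the alternatives, 754 kept their direction and side of the threshold, 67 fell short of it, 3 came to pass it and 24 changed sign. At a mean of at least 1 FPKM, Il11 had no value in either comparison, nor had Lif and Msx1 between E18.5 and E15.5.

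With 3 mice a group, an exact test cannot fall below 0.10. Il11 rests on 0 to 29 counts in 4 of the 6 early libraries, so its values there carry wide counting error. The replicates are separate mice, and no batch is given in the labels.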
